A study of Mus musculus with 12 samples.

Results

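ADAMTS proteases and the proteoglycans that they cut were examined in mouse cortex through 9 genes. The genes are the proteases Adamts4, Adamts1, Adamts5 and Adamts9, the lecticans Acan, Bcan, Ncan and Vcan, and Tnr, which encodes tenascin-R. They were found by symbol out of 23354 gene symbols in the deposited table. Each symbol had a single row, so 9 of 9 genes were found, and 8 of them were among the 14075 symbols tested, whose average level over all libraries reached 0.5 FPKM. FPKM is the number of sequenced fragments scaled to transcript length and to library size, a level per length that allows different genes to be set side by side. Adamts5, with a mean of 0.384 FPKM, lay under that minimum and its levels are given as a description.

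RNA-seq was run on whole cortex of 12 mice on a C57BL/6 background aged 16 days after birth (postnatal day 16), with 4 groups and 3 animals in each. Dnmt1 conditional knockout (CKO) mice had the genotype Olig1cre/+;Dnmt1flox/flox, and their littermate controls were Olig1+/+;Dnmt1flox/flox. Dnmt3a CKO mice were Olig1cre/+;Dnmt3aflox/flox, with littermate controls that were Olig1+/+;Dnmt3aflox/flox. All mice therefore carried floxed alleles, and only CKO mice carried cre. Cre was inserted at the Olig1 locus, which is active in the oligodendrocyte lineage, so the RNA of all other cortical cells was measured along with that of the cells in which the gene was targeted, and the CKO mice carry 1 intact copy of Olig1. The steps between low values imply a depth of 35700000 to 40800000 fragments per library.

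Lecticans are large chondroitin sulphate proteoglycans. Their amino-terminal end binds hyaluronan, a bond that link proteins of the Hapln family stabilise, and their carboxy-terminal end binds tenascins, so that hyaluronan, lectican and tenascin-R form a lattice in the space between brain cells. This lattice is dense in the perineuronal nets around parvalbumin interneurons and at the nodes of Ranvier of myelinated axons. Secreted ADAMTS metalloproteinases cut the lectican core proteins at defined glutamate bonds, and the protease encoded by Adamts4, also called aggrecanase-1, is known in the brain as a gene of mature oligodendrocytes.

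Before the gene values are given, the targeted genes were checked against the labels. Dnmt1 FPKM was 10.6, 10.2 and 9.78 in replicates 1 to 3 of the Dnmt1 controls and 7.26, 9.11 and 9.09 in the Dnmt1 CKO libraries. Dnmt3a FPKM was 31.1, 16.9 and 28.7 in the libraries labelled Dnmt3a control and 13.6, 14.2 and 15.4 in those labelled Dnmt3a CKO. The library labelled Dnmt3a control replicate 2 thus stood near the CKO level of the gene that it should carry intact, and the Dnmt3a effects of the 9 genes and the differences between the lines that passed are also given without it. With all libraries, the targeted gene was lower in CKO without overlap in both lines, and neither decrease passed 10% FDR. The log2 fold changes were -0.27 for Dnmt1 (adjusted p = 0.286 from limma) and -0.78 for Dnmt3a (adjusted p = 0.657). Olig1, the locus that carries cre, averaged 46.5 ± 4.46 FPKM in Dnmt1 controls and 20.3 ± 1.81 in Dnmt1 CKO (SD, n = 3), and 47.4 ± 2.98 and 33.9 ± 4.33 in the Dnmt3a line. In Dnmt3a control replicate 2 it was at 49.8 FPKM, the highest of its group, against 30.6 to 38.8 in the Dnmt3a CKO libraries, so by Olig1 this library stood with the controls. Xist, named here outside the rule for genes, stood at 46.2 to 49.4 FPKM in replicate 3 of both control groups and of the Dnmt3a CKO, at 1.69 to 1.85 in the Dnmt1 CKO libraries and at 0.0853 or less in the other libraries, and sex is not in the labels.

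Adamts4 was the most abundant of these proteases in both control groups and in Dnmt3a CKO, and it was the 1 of 3 tested proteases whose decrease in the Dnmt1 CKO cortex passed 10% FDR. There its values overlapped those of Adamts1. The gene spans chr1:171250421-171260637 on the plus strand (GRCm38, with 9 exons in its longest GENCODE transcript). Its level was 9.28, 8.64 and 7.60 FPKM in Dnmt1 controls and 2.32, 2.85 and 2.53 FPKM in Dnmt1 CKO mice. Every CKO library lay below every control. The log2 fold change was -1.69 (SE 0.106, 95% interval -1.95 to -1.43, adjusted p = 0.00225 from limma), a level 3.23-fold lower on the log2(FPKM + 0.1) scale. Across all rows tested, 444 of 14115 passed 10% FDR in this comparison (3.15%).

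Adamts4 in the Dnmt3a line was at 10.3, 10.01 and 8.63 FPKM in controls and at 9.62, 9.58 and 8.90 FPKM in CKO mice. The groups overlapped, with a log2 fold change of -0.04 (95% interval -0.23 to 0.15, adjusted p = 0.926 from limma), or -0.0078 without Dnmt3a control replicate 2. The CKO effect on Adamts4 differed between the lines by -1.66 on the log2 scale (SE 0.132, limma interaction over 12 libraries, adjusted p = 4.32e-05), where 2.13% of all rows passed. Without Dnmt3a control replicate 2 the difference was -1.68 (adjusted p = 0.00031 from limma).

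Because the cortex was profiled in bulk, fewer cells of a type and less RNA per cell cannot be told apart. The markers of myelinating oligodendrocytes moved with Adamts4: 12 of 12 listed genes were lower past the threshold in Dnmt1 CKO, with a median log2 fold change of -1.95 beside -0.02 over all rows. Their summed level was 2273, 2153 and 1953 FPKM in Dnmt1 controls and 576.4, 672.0 and 642.7 in Dnmt1 CKO, and its most abundant gene was Mbp, which encodes myelin basic protein. The sums of the Dnmt3a line were 2661, 2968 and 2485 FPKM in controls and 2713, 3094 and 2739 in CKO, with 0 of 12 genes past the threshold in limma and 0 at an unadjusted p under 0.05. No marker of the list was near 0.

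Adamts4 RNA amounted to 0.389% to 0.408% of that summed myelin level in Dnmt1 controls and to 0.393% to 0.424% in Dnmt1 CKO. The ranges overlapped while both quantities differed between the groups. The share in the Dnmt3a line was 0.338% to 0.386% in controls and 0.310% to 0.355% in CKO, also with overlap. The part of the marker decrease in the Adamts4 result was not tested.

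Among 14074 other genes, those whose values over the 12 libraries were most like Adamts4 were Nipal4, Tspan2, Tmem88b, Gsn and Cnp. Likeness was the root mean square difference of log2 values centred on each gene's mean, which was 0.09 for Nipal4 and 0.12 for Cnp, the gene of a myelin enzyme. Their log2 fold changes in Dnmt1 CKO lay from -1.76 (Nipal4) to -1.38 (Cnp), and in Dnmt3a CKO from -0.01 (Nipal4) to 0.07 (Tspan2). These 5 genes share the libraries with Adamts4, so the likeness is a description.

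**Figure D1:**
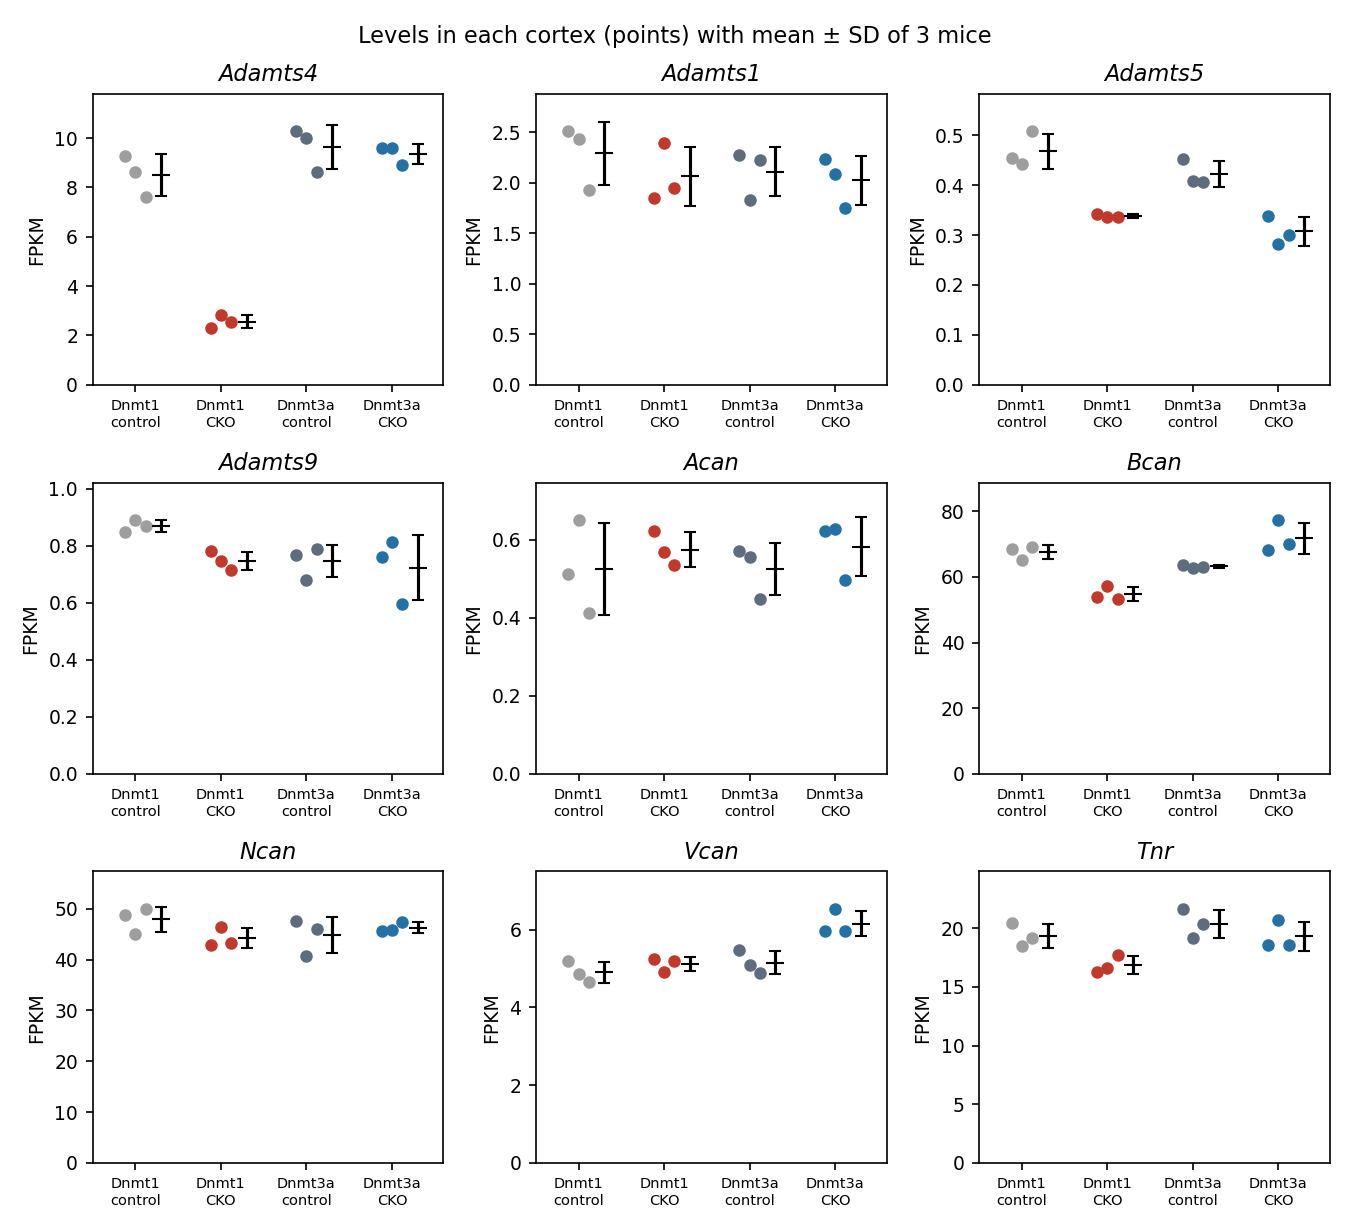
Levels of the 9 genes in FPKM on linear axes that start at 0, 1 panel per gene, with 1 point per mouse cortex and beside the points the mean ± SD of each group of 3. Adamts4 in Dnmt1 CKO, from 2.32 to 2.85 FPKM, stands below all 9 other libraries, which lie between 7.60 and 10.3 FPKM.

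The remaining proteases were low and did not pass the test in either line. Adamts1, a protease that cuts aggrecan and versican, was at 2.51, 2.43 and 1.93 FPKM in Dnmt1 controls and at 1.85, 2.39 and 1.95 in Dnmt1 CKO, and the groups overlapped (log2 fold change -0.14, limma adjusted p = 0.701, and -0.26 to -0.074 with 1 library left out). Its log2 fold change in Dnmt3a CKO was -0.06 (limma adjusted p = 0.932), or -0.15 without Dnmt3a control replicate 2.

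Adamts9, a versican-cutting protease, was at 0.847, 0.889 and 0.872 FPKM in Dnmt1 controls and at 0.781, 0.747 and 0.717 in Dnmt1 CKO. The CKO libraries lay below the controls, but the difference did not pass the threshold (log2 fold change -0.19, SE 0.0612, adjusted p = 0.235 from limma). Its groups overlapped in the Dnmt3a line (log2 fold change -0.05, or -0.10 without Dnmt3a control replicate 2), and 10.5% of the 50-base words in its transcripts also occur in A730049H05Rik or Gm15737, whose reads may count in its level.

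Adamts5, aggrecanase-2, had lower, non-overlapping values in both knockouts, as did 1.02% of all rows tested, and lay under the minimum for the test. Its levels were 0.455, 0.442 and 0.508 FPKM in Dnmt1 controls and 0.342, 0.336 and 0.335 in Dnmt1 CKO. They were 0.453, 0.409 and 0.405 FPKM in Dnmt3a controls and 0.339, 0.283 and 0.301 in Dnmt3a CKO. When the minimum mean was lowered to 0.1 FPKM, the log2 fold changes were -0.37 (SE 0.0916, adjusted p = 0.153 from limma) and -0.36 (SE 0.107, adjusted p = 0.666). Neither passed 10% FDR. Without Dnmt3a control replicate 2 the second was -0.38. These values rest on an implied 112 to 214 fragments per library, for which counting error alone reaches 9.5%.

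Summed over the 4 proteases, the level was 12.1 ± 1.12 FPKM in Dnmt1 controls and 5.71 ± 0.54 in Dnmt1 CKO, against 12.9 ± 0.86 and 12.4 ± 0.762 in the Dnmt3a line (SD, n = 3). Adamts4 made up 70.1% ± 0.713 of that sum in Dnmt1 controls, 44.9% ± 0.985 in Dnmt1 CKO, 74.5% ± 2.89 in Dnmt3a controls and 75.5% ± 1.43 in Dnmt3a CKO. The other 3 proteases together held 3.63 ± 0.275 FPKM in Dnmt1 controls and 3.15 ± 0.282 in Dnmt1 CKO, with ranges that overlapped.

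Bcan encodes brevican, the most abundant lectican RNA of these cortices, and the 1 of 4 lecticans whose decrease in Dnmt1 CKO passed 10% FDR. Its level was 68.6, 65.1 and 69.2 FPKM in Dnmt1 controls and 53.9, 57.3 and 53.3 in Dnmt1 CKO, without overlap. The log2 fold change was -0.30 (SE 0.0405, 95% interval -0.40 to -0.20, adjusted p = 0.026 from limma), a decrease that was smaller than that of Adamts4. The call was lost without Dnmt1 CKO replicate 1 (-0.29, adjusted p = 0.122 from limma) and without Dnmt1 CKO replicate 3 (-0.28, adjusted p = 0.108 from limma).

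In Dnmt3a CKO, Bcan stood on the other side of its controls: 68.3, 77.2 and 69.9 FPKM against 63.7, 62.9 and 63.0 FPKM. The groups did not overlap, yet the difference did not pass the threshold (log2 fold change 0.18, SE 0.0493, adjusted p = 0.657 from limma), and without Dnmt3a control replicate 2 it was 0.18 (adjusted p = 0.716 from limma). The difference between the lines did pass, at -0.48 (SE 0.0685, adjusted p = 0.00381, limma interaction) and at -0.48 (adjusted p = 0.0134) without that library. Of all rows tested, 104 (0.737%) were lower without overlap in Dnmt1 CKO and higher without overlap in Dnmt3a CKO.

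Brevican RNA is made by astrocytes and by cells of the oligodendrocyte lineage, so the marker sums of both stand beside its values. The 8 astrocyte markers summed to 840.5, 835.0 and 805.5 FPKM in Dnmt1 controls and to 803.7, 817.9 and 823.6 in Dnmt1 CKO, which overlapped. Sums in the Dnmt3a line were 819.9, 839.8 and 820.2 FPKM in controls and 877.3, 941.0 and 879.7 in CKO, where all CKO values were higher. Slc1a2, a glutamate transporter, was the most abundant of these markers, and none was near 0.

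Gfap, the astrocyte filament gene, was the 1 of 8 astrocyte markers that passed in the Dnmt1 line, and it was higher in CKO: 48.6 ± 1.27 FPKM in controls and 66.5 ± 3.1 in CKO (SD, n = 3; log2 fold change 0.45, adjusted p = 0.00646 from limma). Of the 8 markers, 4 were higher and 4 lower in Dnmt1 CKO, among them Slc1a2 (-0.11, adjusted p = 0.336 from limma) and Aqp4, named outside the rule (-0.28, adjusted p = 0.138), both lower without overlap. The sum of 6 progenitor markers was 54.1, 50.7 and 48.9 FPKM in Dnmt1 controls and 42.9, 44.6 and 40.5 in Dnmt1 CKO, and Pdgfra and Olig2 were the 2 of 6 that passed, both lower. The other 4 did not pass. Of the 6, 5 were lower and 1 was higher, Matn4, named outside the rule (0.12, adjusted p = 0.578 from limma). The Pdgfra call was lost without control replicate 2 or any 1 CKO replicate of that line (adjusted p up to 0.187 from limma), and the Olig2 call without any 1 of its libraries but CKO replicate 2 (up to 0.22). The sum of 6 markers of newly formed oligodendrocytes was 89.0, 81.5 and 81.7 FPKM in Dnmt1 controls and 55.3, 53.9 and 51.3 in Dnmt1 CKO, and 5 of 6 were lower past the threshold, although the Enpp6 call was lost without control replicate 2 or CKO replicate 1 or 3 (adjusted p = 0.11 to 0.122 from limma). In the Dnmt3a line both sums overlapped, with progenitor markers at 49.5, 48.1 and 47.3 FPKM in controls and 47.0, 51.3 and 44.4 in CKO. Those of newly formed oligodendrocytes were at 86.2, 79.6 and 84.2 FPKM in controls and 85.4, 88.7 and 91.4 in CKO, although within that list Neu4 was lower (log2 fold change -0.21) and Bmp4, named outside the rule, higher (0.42) without overlap, neither past the threshold (adjusted p = 0.657 from limma for both). Their part in the Bcan result was not tested.

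The genes most like Bcan over the 12 libraries were Npc2, Pak4, Sparc, Plod1 and Slc6a9, with root mean square differences from 0.06 (Npc2) to 0.07 (Slc6a9). Sparc encodes a secreted matrix protein and Slc6a9 a glycine transporter. Their log2 fold changes lay from -0.30 (Slc6a9) to -0.22 (Sparc) in Dnmt1 CKO and from 0.05 (Plod1) to 0.12 (Slc6a9) in Dnmt3a CKO.

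Ncan, which encodes neurocan, was second in abundance and varied least of the 9 genes, 1.22-fold from its lowest to its highest library. It was at 48.8, 45.2 and 49.9 FPKM in Dnmt1 controls and at 43.0, 46.5 and 43.3 in Dnmt1 CKO, and the groups overlapped (log2 fold change -0.11, 95% interval -0.24 to 0.01, limma adjusted p = 0.372). Dnmt3a CKO gave a log2 fold change of 0.05 (limma adjusted p = 0.86), or -0.02 without Dnmt3a control replicate 2.

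Vcan encodes versican, of which progenitors and fibroblasts are known sources. It was at 5.18, 4.87 and 4.66 FPKM in Dnmt1 controls and at 5.24, 4.92 and 5.19 in Dnmt1 CKO, with overlap. Values of the Dnmt3a line were 5.47, 5.09 and 4.89 FPKM in controls and 5.96, 6.52 and 5.97 in CKO, where the groups did not overlap. The log2 fold change in Dnmt3a CKO was 0.25 (SE 0.0668) and did not pass (adjusted p = 0.657 from limma), and without Dnmt3a control replicate 2 it was 0.25 (adjusted p = 0.716 from limma).

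Acan, the aggrecan gene and a core component of perineuronal nets, was the scarcest lectican. Its levels were 0.513, 0.649 and 0.412 FPKM in Dnmt1 controls and 0.621, 0.567 and 0.534 in Dnmt1 CKO, and 0.571, 0.557 and 0.448 in Dnmt3a controls and 0.623, 0.628 and 0.496 in Dnmt3a CKO. Groups overlapped in both lines (log2 fold changes 0.13 and 0.13, intervals -0.23 to 0.49 and -0.18 to 0.43), and the latter was 0.16 without Dnmt3a control replicate 2 and 0.034 to 0.22 over all libraries left out in turn. The implied 119 to 176 fragments per library give a counting error of up to 9.2%.

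Tnr, whose product tenascin-R crosslinks lecticans, was at 20.5, 18.5 and 19.2 FPKM in Dnmt1 controls and at 16.3, 16.6 and 17.8 in Dnmt1 CKO. The CKO values were lower without overlap, and the difference did not pass the threshold (log2 fold change -0.20, SE 0.0523, limma adjusted p = 0.176). Dnmt3a CKO and controls overlapped (log2 fold change -0.08, limma adjusted p = 0.786, or -0.12 without Dnmt3a control replicate 2 and -0.13 to -0.034 over all libraries left out in turn).

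In all, 2 of the 8 genes tested, Adamts4 and Bcan, passed 10% FDR in the Dnmt1 line, both with lower levels in CKO, where 2.3% of all rows were lower and 0.85% higher past the threshold. In the Dnmt3a line 0 of 8 passed limma's test at 10% FDR, and 2 of 8, Bcan and Vcan, had an unadjusted p under 0.05, where 0.0142% and 7.35% of all rows did so. In the test of the difference between the lines 2 of 8 passed, both on the lower side for the Dnmt1 line, where 1.83% of all rows passed on the lower and 0.298% on the higher side. The median log2 fold change of the 8 genes was -0.17 in the Dnmt1 line and 0.01 in the Dnmt3a line, beside -0.02 and 0.01 over all rows.

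Values that did not overlap between CKO and controls were seen in 4 of 8 genes in the Dnmt1 line, all lower (Adamts4, Adamts9, Bcan and Tnr), against 14.4% of all rows lower and 6.38% higher. Among the same 8 genes, 2 were higher without overlap in Dnmt3a CKO (Bcan and Vcan) and 0 lower, against 7.33% and 5.43% of all rows.

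**Figure D2:**
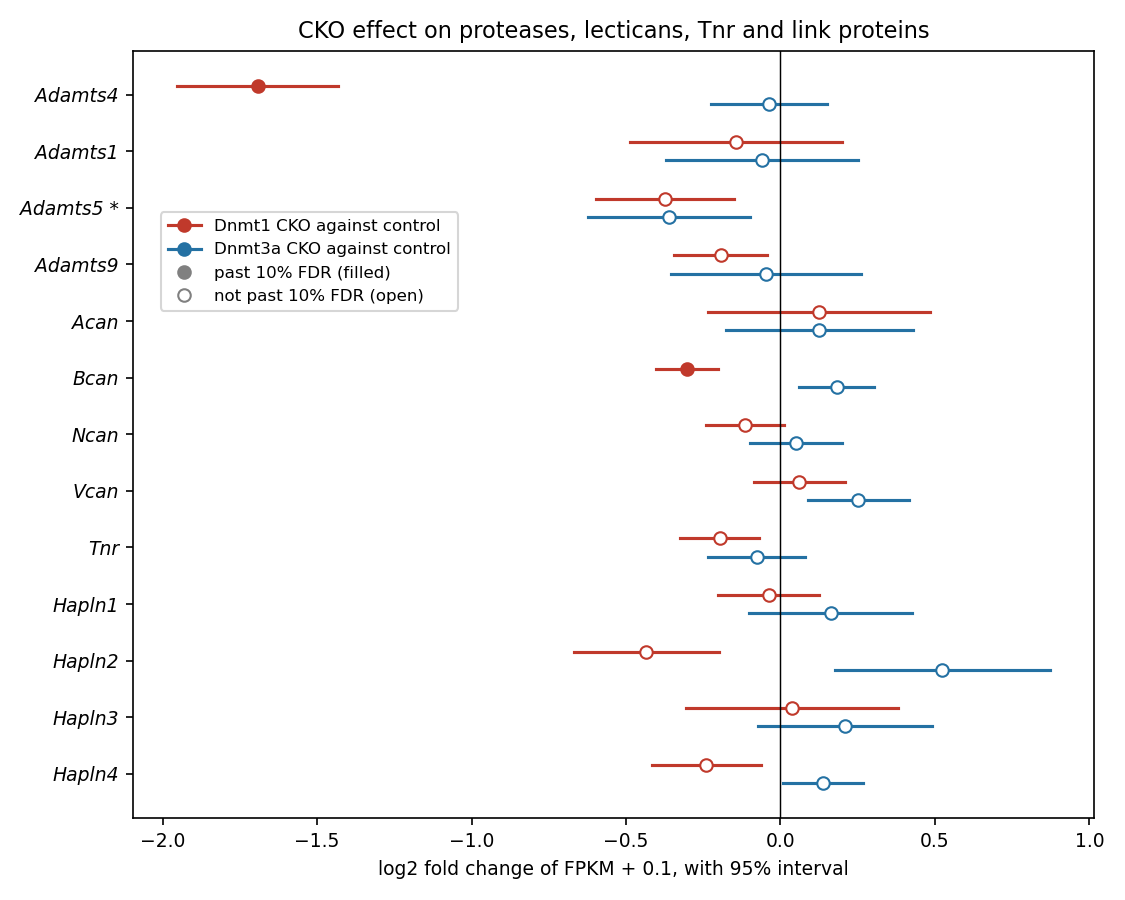
Log2 fold change of CKO over littermate control on the log2(FPKM + 0.1) scale with 95% intervals, for the 9 genes and the 4 link protein genes in the Dnmt1 and the Dnmt3a line, n = 3 mice per group, with filled points past 10% FDR. The Adamts4 interval in the Dnmt1 line, -1.95 to -1.43, lies apart from all the others, the Bcan estimates of the lines stand on opposite sides of 0, and the asterisk marks Adamts5, which was fitted with rows of at least 0.1 FPKM.

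The order of levels in Dnmt1 controls was Bcan, Ncan, Tnr, Adamts4, Vcan, Adamts1, Adamts9, Acan and Adamts5, from 67.6 ± 2.18 down to 0.468 ± 0.0349 FPKM (SD, n = 3). Each gene was separate from the next in that order except Acan and Adamts5, whose values overlapped, and the Dnmt3a controls had the same order with the same overlap. In Dnmt1 CKO, Adamts4 moved below Vcan and overlapped Adamts1. In Dnmt3a CKO the order was that of the controls, with overlap between Adamts9 and Acan.

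The 4 lecticans together held 121.0 ± 4.53 FPKM in Dnmt1 controls and 104.8 ± 3.96 in Dnmt1 CKO, and 113.7 ± 4.05 and 124.9 ± 4.92 in the Dnmt3a line (SD, n = 3). Brevican RNA was 1.41 ± 0.0286 times neurocan RNA in Dnmt1 controls and 1.24 ± 0.013 times in Dnmt1 CKO, ranges that did not overlap. The ratio was 1.42 ± 0.11 in Dnmt3a controls and 1.55 ± 0.115 in Dnmt3a CKO, where the ranges overlapped. That overlap came from Dnmt3a control replicate 2 alone, at 1.54, as control replicates 1 and 3 were at 1.34 and 1.37. The Dnmt3a CKO libraries lay from 1.47 to 1.68. Lectican RNA was 10.03 ± 1.16 times protease RNA in Dnmt1 controls and 18.4 ± 1.06 times in Dnmt1 CKO, against 8.82 ± 0.588 and 10.1 ± 0.718 in the Dnmt3a line. No test was run on these sums and ratios, and an exact two-sided permutation test of 3 mice against 3 could not give a p under 0.1.

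**Figure D3:**
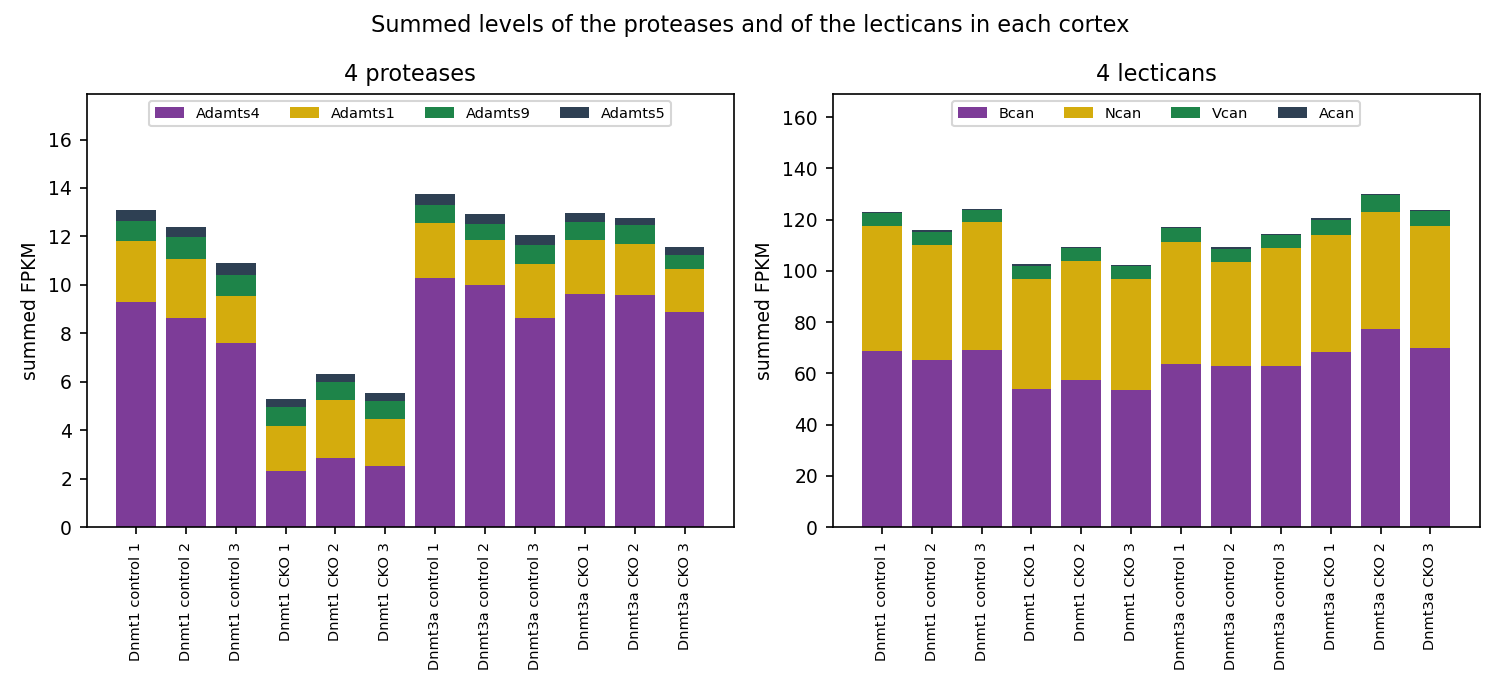
Summed FPKM of the 4 proteases and of the 4 lecticans in each cortex as stacked bars from 0, 1 bar per library, with each gene in its own colour. The protease sum averages 5.71 FPKM in Dnmt1 CKO against 12.1 to 12.9 FPKM in the other groups, with most of the difference in the Adamts4 segment, and the lectican sum is made up mostly of Bcan and Ncan in all libraries.

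Each lectican gene lies next to a gene of the link protein family. In the GENCODE annotation of GRCm38 no coding gene separates the partners, with 2 bases between the opposed genes Acan and Hapln3 on chromosome 7, 21519 bases between Bcan and Hapln2 on chromosome 3, 2222 between Ncan and Hapln4 on chromosome 8 and 43659 between Vcan and Hapln1 on chromosome 13. Adamts1 and Adamts5 are neighbours as well, 53059 bases apart on the minus strand of chromosome 16.

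Hapln2, also called Bral1, is the link protein of the nodes of Ranvier, where it binds versican. Its level was 0.775, 0.854 and 0.686 FPKM in Dnmt1 controls and 0.563, 0.573 and 0.497 in Dnmt1 CKO. The Dnmt3a line had 0.864, 1.23 and 0.925 FPKM in controls and 1.40, 1.41 and 1.63 in CKO. The CKO values were thus lower in one line and higher in the other without overlap, as for Bcan.

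Neither Hapln2 difference passed alone (log2 fold changes -0.43 and 0.52, adjusted p = 0.119 and 0.657 from limma, the former passing without Dnmt1 control replicate 3 at 0.0969), while the difference between the lines did (-0.96, SE 0.204, adjusted p = 0.0466, limma interaction). Without Dnmt3a control replicate 2, which had the highest control value, the Dnmt3a log2 fold change was 0.66 and the difference between the lines -1.10 (adjusted p = 0.014 from limma). The difference did not pass without Dnmt1 control replicate 1 (-0.95, adjusted p = 0.103), Dnmt1 control replicate 2 (-0.89, adjusted p = 0.121) or Dnmt1 CKO replicate 3 (-0.90, adjusted p = 0.108).

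Hapln4, or Bral2, the link protein that binds brevican in perineuronal nets, was at 5.71, 6.70 and 6.33 FPKM in Dnmt1 controls and at 5.29, 5.46 and 5.05 in Dnmt1 CKO. It was at 6.64, 7.33 and 7.20 FPKM in Dnmt3a controls and at 7.63, 7.98 and 7.70 in Dnmt3a CKO. Its groups did not overlap in either line and again differed in sign. The log2 fold changes of -0.24 and 0.14 did not pass (adjusted p = 0.216 and 0.657 from limma), and their difference of -0.38 did (SE 0.0869, adjusted p = 0.0662, limma interaction), or -0.40 (adjusted p = 0.0976) without Dnmt3a control replicate 2. With any 1 other library left out it passed only without Dnmt1 control replicate 1 or Dnmt1 CKO replicate 2 and otherwise lay at -0.39 to -0.33 (adjusted p up to 0.186 from limma).

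Hapln1, the most abundant of the family at 8.93 to 12.1 FPKM, and Hapln3, at 0.714 to 1.02 FPKM, overlapped between CKO and controls in the Dnmt1 line. Their log2 fold changes were -0.04 and 0.04 in Dnmt1 CKO and 0.16 and 0.21 in Dnmt3a CKO (0.09 and 0.18 without Dnmt3a control replicate 2), none of which passed. So the neighbours Bcan and Hapln2 both differed between the lines past the threshold, whereas of Ncan and Hapln4 only Hapln4 did, and neither gene of the other neighbouring lectican and link protein pairs did.

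**Figure D4:**
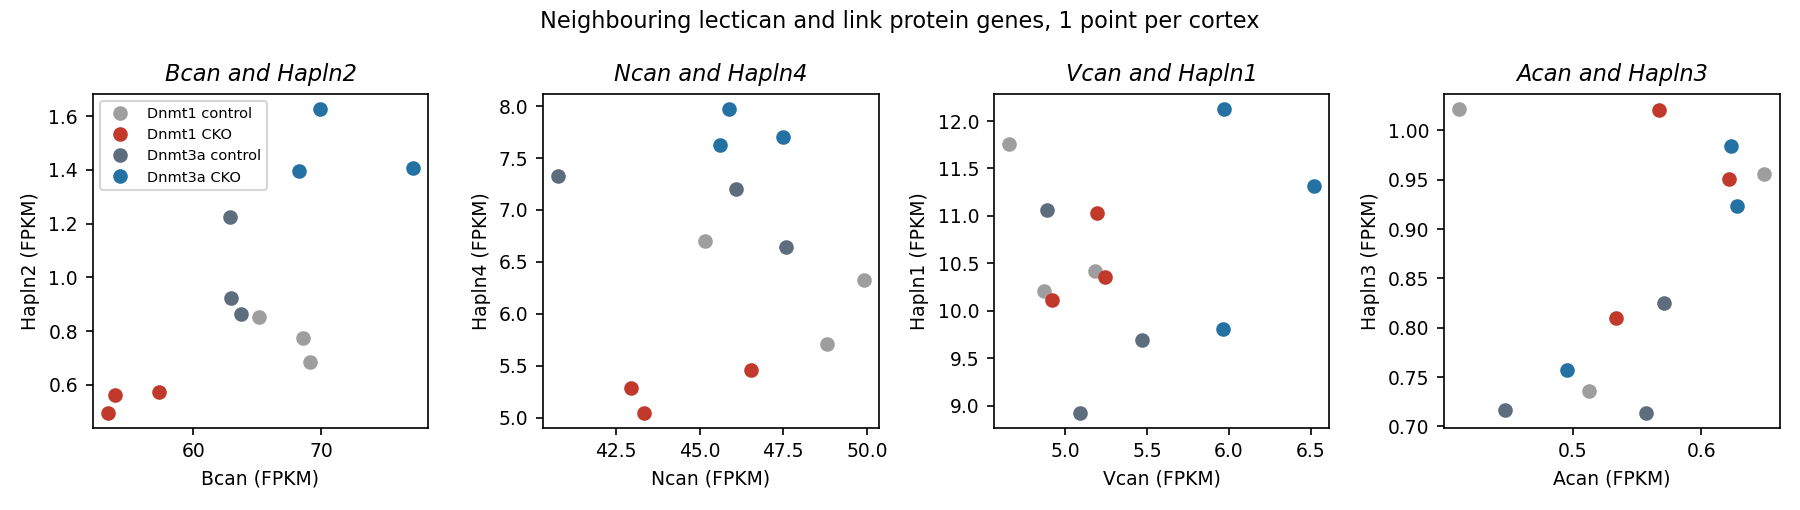
FPKM of each lectican on the horizontal axis against the link protein gene beside it on the vertical axis, 1 panel per gene pair and 1 point per cortex, coloured by group, on linear axes that do not start at 0. In the panel of Bcan and Hapln2 the Dnmt1 CKO libraries sit at the lower left, at 53.3 to 57.3 and 0.497 to 0.573 FPKM, and the Dnmt3a CKO libraries at the upper right.

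Since the deleted enzymes methylate cytosine in CG, the sequences before the start sites of the neighbours Bcan and Hapln2 are shown, as these are the lectican and link protein pair of which both genes differed between the lines. Both come from RefSeq on GRCm38.p6, are written 5′ to 3′ on the minus strand of the genes, and have CG in capitals. The Bcan stretch is chr3:88000357-88000606 and holds 250 bases. The Hapln2 stretch is chr3:88027584-88027761, which is 178 bases because bases that are exonic in GENCODE were left out.
Bcan: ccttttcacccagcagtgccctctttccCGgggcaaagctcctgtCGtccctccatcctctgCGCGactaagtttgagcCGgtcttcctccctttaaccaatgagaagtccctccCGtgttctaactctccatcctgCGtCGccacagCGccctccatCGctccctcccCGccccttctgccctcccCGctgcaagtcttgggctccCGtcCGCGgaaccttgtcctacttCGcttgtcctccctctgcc
Hapln2: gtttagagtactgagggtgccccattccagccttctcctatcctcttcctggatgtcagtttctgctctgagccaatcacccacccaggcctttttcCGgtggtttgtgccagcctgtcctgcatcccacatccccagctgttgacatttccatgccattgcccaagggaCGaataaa

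The Bcan stretch holds 16 CG and the Hapln2 stretch 2. Among 32851 RefSeq promoter windows, read over the 250 bases before the start, the median is 6 CG, and 25.4% of windows hold at least as many as Bcan and 81.2% at least as many as Hapln2. Windows were found for 7 of the 9 genes. Acan had 26 CG, Adamts9 22, Adamts1 15, Vcan 10, Ncan 6 and Tnr 2. The windows of Adamts4, Adamts5 and Hapln4 were not used here. Methylation was not analysed here, so these counts describe the sequence alone.

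Beyond the 9 genes, 6 lists of the same pathway with 93 genes in all were read from the same fits. Of 21 other ADAMTS and ADAMTS-like genes, 14 were tested and 0 passed 10% FDR in limma in either line or in the difference between them. Unadjusted p-values under 0.05 were seen for 3 in the Dnmt1 line, 0 in the Dnmt3a line and 1 in the difference, where 15%, 7.35% and 10.6% of all rows had one. Their median log2 fold change was 0.02 in the Dnmt1 line and -0.11 in the Dnmt3a line, and the medians of the other 5 lists lay from -0.05 to 0.03 and from -0.01 to 0.04. The most abundant was Adamts3, a procollagen N-proteinase, with 4.97 ± 0.379 FPKM in Dnmt1 controls and 5.09 ± 0.538 in Dnmt1 CKO (SD, n = 3).

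Among 12 tested genes of link proteins and hyaluronan turnover, Tmem2 fell in Dnmt1 CKO. Tmem2 encodes a cell surface protein linked to hyaluronan breakdown, and it was at 4.76, 4.62 and 4.38 FPKM in Dnmt1 controls and at 2.89, 2.98 and 2.82 in Dnmt1 CKO. The groups were far apart (log2 fold change -0.65, SE 0.0584, limma adjusted p = 0.00607). Its log2 fold change in Dnmt3a CKO was -0.11 (adjusted p = 0.757), and Tmem2, Hapln2 and Hapln4 were the 3 genes of this list whose effect differed between the lines. For Tmem2 the difference was -0.54 (adjusted p = 0.00847), and -0.55 (adjusted p = 0.0211) without Dnmt3a control replicate 2.

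Of 17 other matrix proteoglycans and partners, 1 passed in the Dnmt1 line and 0 in the Dnmt3a line. This was Tnc, which encodes tenascin-C, a relative of tenascin-R found around immature cells. Its level was 1.87, 1.97 and 2.15 FPKM in Dnmt1 controls and 1.35, 1.40 and 1.195 in Dnmt1 CKO, without overlap (log2 fold change -0.57, SE 0.0886, adjusted p = 0.0408 from limma). The call was lost without control replicate 2 or 3 or CKO replicate 1 or 3 of that line (adjusted p = 0.109 to 0.155 from limma). Its effect did not pass the test of a difference between the lines (-0.38, adjusted p = 0.445 from limma). Spock2, or testican-2, led this list with 151.3 ± 2.48 FPKM in Dnmt1 controls and 148.7 ± 3.06 in Dnmt1 CKO.

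Of 20 tested genes that build or sulphate chondroitin chains, 1 passed in the Dnmt1 line. Chst3 encodes the chondroitin 6-O-sulphotransferase. It was at 1.19, 1.18 and 1.2 FPKM in Dnmt1 controls and at 0.735, 0.725 and 0.694 in Dnmt1 CKO. Replicates lay close together within each group and the groups far apart (log2 fold change -0.66, SE 0.0577, adjusted p = 0.00564 from limma), and the difference between the lines was -0.62 (adjusted p = 0.0638). That difference did not pass without Dnmt3a control replicate 2 (-0.57, adjusted p = 0.123 from limma), nor without Dnmt1 control replicate 1 or 2, Dnmt1 CKO replicate 3, Dnmt3a control replicate 3 or Dnmt3a CKO replicate 2 (up to 0.133). The most abundant gene, B3gat3, which adds glucuronic acid to the linker of the chain, stood at 47.9 ± 2.84 FPKM in Dnmt1 controls and 48.1 ± 3.52 in Dnmt1 CKO.

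Among 9 tested inhibitors, activators and clearance receptors of the proteases, 0 passed 10% FDR in limma in either line or in the difference between them. In the Dnmt1 line, the Dnmt3a line and the difference, 3, 2 and 1 had an unadjusted p under 0.05, where 15%, 7.35% and 10.6% of all rows had one. Timp3, whose product is the main tissue inhibitor of ADAMTS4 and ADAMTS5 and which is named outside the rule, had log2 fold changes of 0.12 in the Dnmt1 line (unadjusted p = 0.0465 from limma, adjusted p = 0.326) and 0.15 in the Dnmt3a line (adjusted p = 0.728, and 0.069 to 0.24 with 1 library left out). The most abundant gene of this list was Timp2 with 97.0 ± 7.13 FPKM in Dnmt1 controls and 97.3 ± 4.29 in Dnmt1 CKO.

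Of 6 tested metalloproteinases of the MMP family, the membrane-bound Mmp15 passed in the Dnmt1 line. Its level was 6.22, 5.03 and 5.56 FPKM in Dnmt1 controls and 3.82, 3.98 and 3.39 in Dnmt1 CKO, without overlap (log2 fold change -0.57, adjusted p = 0.0622 from limma). The call was lost without any 1 library of that line but control replicate 2 (adjusted p up to 0.202). The difference between the lines was -0.60 (adjusted p = 0.0918), and -0.51 (adjusted p = 0.184) without Dnmt3a control replicate 2. It passed only without Dnmt1 control replicate 2 or Dnmt3a control replicate 1 when 1 library was left out. Mmp17, the most abundant of these, was at 50.04 ± 2.89 FPKM in Dnmt1 controls and 48.0 ± 1.37 in Dnmt1 CKO.

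Because perineuronal nets surround parvalbumin interneurons, their markers were read beside Acan, Tnr and Hapln4. The sum of 4 such markers, led by the potassium channel gene Kcnc1, was 55.4, 61.5 and 59.7 FPKM in Dnmt1 controls and 52.1, 53.0 and 51.0 in Dnmt1 CKO. It was 61.6, 66.3 and 61.3 FPKM in Dnmt3a controls and 69.7, 67.3 and 73.7 in Dnmt3a CKO. The sums were thus lower in one knockout and higher in the other without overlap, as were Bcan, Hapln2 and Hapln4, whereas Acan overlapped in both lines and Tnr in the Dnmt3a line. Within the list, Kcnc2, named outside the rule, was lower without overlap in Dnmt3a CKO (log2 fold change -0.12, adjusted p = 0.657 from limma). Kcnc1 overlapped there (0.07, adjusted p = 0.663), while Pvalb and Syt2, the latter named outside the rule, were higher without overlap. The sum averaged 63.0 FPKM in Dnmt3a controls and 70.2 in Dnmt3a CKO, and Pvalb alone 20.3 and 27.3, so most of that rise was in Pvalb.

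Pvalb was the 1 of these 4 markers that passed in the Dnmt1 line, with 17.95 ± 1.11 FPKM in controls and 14.8 ± 0.624 in CKO (SD, n = 3; log2 fold change -0.27, limma adjusted p = 0.0985). Dnmt3a controls were at 20.3 ± 1.72 and Dnmt3a CKO at 27.3 ± 2.25 FPKM (log2 fold change 0.43, adjusted p = 0.657), and the difference between the lines passed (-0.70, adjusted p = 0.00565), also without Dnmt3a control replicate 2 (-0.77, adjusted p = 0.00382). The Dnmt1 call of Pvalb was lost without any 1 library of that line but control replicate 1 (adjusted p up to 0.271 from limma). The part of these cells in the values of the matrix genes was not tested.

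Of the markers of other cells, 2 of 6 mural cell genes, Rgs5 and Acta2, were lower past the threshold in Dnmt1 CKO. The Acta2 call was lost without any 1 library of that line (adjusted p = 0.116 to 0.292 from limma) and the Rgs5 call without CKO replicate 1 (adjusted p = 0.121). No marker of neurons, microglia, endothelium, fibroblasts, choroid plexus or blood passed 10% FDR in limma in either line. Of these 31 markers 6 in the Dnmt1 line and 1 in the Dnmt3a line had an unadjusted p under 0.05. Of all rows, 15% and 7.35% had one. The sum of 6 endothelial markers, led by Cldn5, was 68.3, 63.9 and 61.1 FPKM in Dnmt1 controls and 55.9, 60.1 and 55.4 in Dnmt1 CKO, and that of 5 blood markers, led by Hbb-b1, was 19.8, 28.1 and 16.7 FPKM in controls and 15.3, 9.27 and 9.64 in CKO. The mural sum was 45.9, 42.3 and 42.4 FPKM in Dnmt1 controls and 34.3, 36.9 and 33.8 in Dnmt1 CKO. These sums were lower without overlap where Adamts4 and Bcan fell, and their part in those results was not tested. The choroid plexus gene Ttr was uneven within groups, from 1.94 to 408.3 FPKM within Dnmt3a CKO, and Hbb-b2 was the marker near 0 in the libraries.

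**Figure D5:**
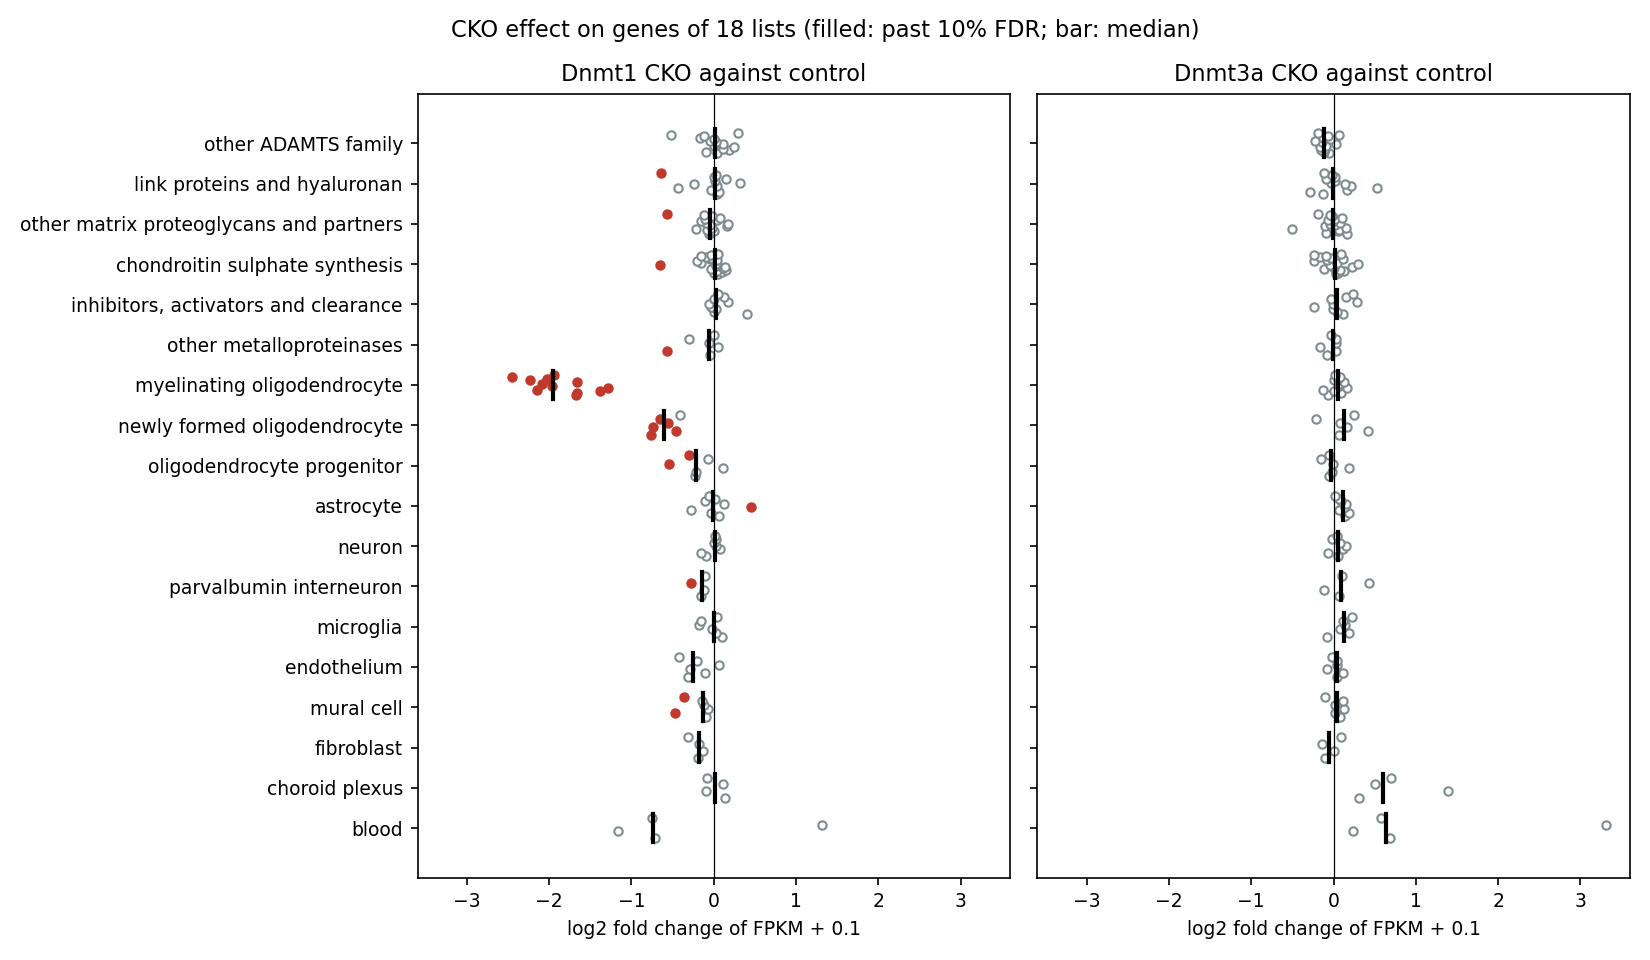
Log2 fold change of CKO over control on the log2(FPKM + 0.1) scale for the tested genes of the 18 lists, in the Dnmt1 and the Dnmt3a line, with 1 point per gene, filled where it passed 10% FDR, and a bar at the median of each list. In the Dnmt1 line the 12 myelinating oligodendrocyte markers are all filled with a median of -1.95, while the pathway lists have medians near 0 and hold Tmem2, Tnc, Chst3 and Mmp15 as their filled points.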

How the data were processed

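The authors aligned reads to mm10 with TopHat, ran Cufflinks and deposited FPKM per gene symbol for 12 cortex libraries made from 250 ng of RNA; the depth was inferred here from steps between low values. Of 23850 rows, 302 exact duplicates were removed. The 14115 rows that averaged 0.5 FPKM or more were tested on log2(FPKM + 0.1) with limma 3.58.1 in R 4.3.3 (lmFit, eBayes with trend), CKO against the controls of each line and, over all libraries, the difference between lines, with Benjamini-Hochberg adjustment over all rows and 10% FDR. The study's Cuffdiff test needs reads and was not run. Members and lists were chosen with earlier results of these data known. Genes named are the 9 members, Dnmt1, Dnmt3a, Olig1, Hapln1 to Hapln4, list genes past 10% FDR (in marker lists at most 4) or most abundant, and the 5 genes most like each called member. The main fits did not pair samples by replicate number, and whether these numbers pair the mice is not known. Positions are from GENCODE M21. The fits were tested on simulated data. Python 3.11.15 with pandas 2.3.3, numpy 2.4.6 and matplotlib 3.10.9 did the rest. Alternatives covered pseudocount, filter, eBayes settings, scaling, summing per symbol, replicate block, Xist covariate, a joint model, 5% FDR and leaving out each library. Results for some genes are not reported here.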

Additional observations from a re-analysis of the deposited data

Results flagged for a closer look

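The CKO effect differed between the Dnmt1 and the Dnmt3a line past 10% FDR in limma's interaction test for the following genes, with values given as the effect in the Dnmt1 line minus that in the Dnmt3a line on the log2 scale. Among the proteases and lecticans these were Adamts4 (-1.66, adjusted p = 4.32e-05) and Bcan (-0.48, adjusted p = 0.00381). Among genes of the same matrix they were Hapln2 (-0.96, adjusted p = 0.0466), Hapln4 (-0.38, adjusted p = 0.0662), Tmem2 (-0.54, adjusted p = 0.00847), Chst3 (-0.62, adjusted p = 0.0638) and Mmp15 (-0.60, adjusted p = 0.0918).

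The locus that carries cre, Olig1, differed by -0.70 (adjusted p = 0.0324). Markers of myelinating oligodendrocytes differed by -1.79 for Mbp (adjusted p = 1.64e-05), -1.38 for Cnp (adjusted p = 1.64e-05) and -1.76 for Cldn11 (adjusted p = 1.28e-05). Markers of newly formed oligodendrocytes differed by -0.64 for Gpr17 (adjusted p = 0.0022), -0.90 for Enpp6 (adjusted p = 0.00652), -0.44 for Neu4 (adjusted p = 0.0107) and -0.83 for Bcas1 (adjusted p = 0.000803). The astrocyte marker Slc1a2 differed by -0.21 (adjusted p = 0.0975, lost under 21 of 26 alternatives and, with 1 library left out, kept only without Dnmt1 control replicate 3) and the interneuron marker Pvalb by -0.70 (adjusted p = 0.00565). Without Dnmt3a control replicate 2, Chst3 (-0.57, adjusted p = 0.123), Mmp15 (-0.51, adjusted p = 0.184) and Slc1a2 (-0.21, adjusted p = 0.167) no longer passed and the other genes named here did. The Olig1 difference did not pass without Dnmt3a control replicate 3 (-0.65, adjusted p = 0.1).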

How the results depend on the processing

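Adamts4 stayed past 10% FDR in the Dnmt1 line under every alternative run, at -1.77 to -1.63 with 1 library left out (adjusted p = 0.00809 to 0.0198 from limma). Adamts4 and Bcan also stayed past it in the difference between the lines under all 26 alternatives. A block for the replicate numbers within each line, added after seeing the data, gave adjusted p = 0.0413 for Bcan there and 232 called rows, against 300 without a block. Numbers of calls depended on the libraries. In the Dnmt1 line 444 rows were called. The replicate block called 162, 5% FDR 263, and leaving out 1 library 199 (without Dnmt1 CKO replicate 1) to 341, whereas the joint model called 609, robust moderation 545, quantile normalization 543 and median-ratio scaling 538. The same-number correlations of deviations were -0.06, 0.04 and -0.03 in the Dnmt1 line and 0.02, -0.08 and 0.00 in the Dnmt3a line. Different numbers gave -0.09 to 0.11 in the Dnmt1 line and -0.05 to 0.055 in the Dnmt3a line. These deviations come from groups of 3 mice and cannot decide whether the numbers pair the mice. Under the replicate block 1 of the 9 genes was called, and Bcan kept -0.30 with adjusted p = 0.185 from limma. With 1 library left out, 1 to 2 were called, and Bcan ranged from -0.33 to -0.28. In the Dnmt3a line 2 rows were called, 17 without a filter, 2 to 5 with 1 library left out, and 1 with a pseudocount of 1, a minimum of 1 FPKM, quantile normalization, the replicate block, the joint model, the Xist covariate or 5% FDR. The Adamts5 log2 fold changes, which depend on the pseudocount at this level, were -0.13 and -0.12 in the Dnmt1 and Dnmt3a lines with a pseudocount of 1 and -0.46 and -0.45 with 0.01. Quantile normalization gave Adamts5 -0.47 in the Dnmt1 line and -0.12 for the difference between the lines. A pseudocount of 1 also shrank other low genes: in the Dnmt1 line Chst3 to -0.35, Tnc to -0.37, Hapln2 to -0.20, Adamts9 to -0.097 and Acan to 0.049, in the Dnmt3a line Hapln2 to 0.31 and Acan to 0.053, and in the difference between the lines Chst3 to -0.33 and Hapln2 to -0.51, with the same calls.

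Directions of uncalled effects turned with 1 library left out, and the cause was not tested. Ranges were -0.009 to 0.27 for Acan, -0.077 to 0.024 for Hapln1 and -0.089 to 0.12 for Hapln3 in the Dnmt1 line. They were -0.11 to 0.010 for Adamts4, -0.15 to 0.036 for Adamts1, -0.13 to 0.071 for Adamts9 and -0.016 to 0.095 for Ncan in the Dnmt3a line. For the difference between the lines they were -0.20 to 0.0083 for Adamts1, -0.14 to 0.14 for Acan and -0.12 to 0.052 for Timp3. The Acan difference was also 0.0024 with a pseudocount of 0.01, 0.030 after median-ratio scaling and 0.035 with the Xist covariate, and that of Timp3 was 0.0080 after median-ratio scaling and 0.0096 after quantile normalization. With 1 library left out, other uncalled effects in the Dnmt3a line ranged from 0.092 to 0.25 for Hapln1 and from 0.14 to 0.31 for Hapln3, and in the difference between the lines from -0.26 to -0.066 for Adamts9, -0.21 to -0.099 for Ncan, -0.16 to -0.067 for Tnr, -0.29 to -0.13 for Hapln1 and -0.30 to -0.086 for Hapln3. Calls were gained in the Dnmt1 line for Hapln2 without Dnmt1 control replicate 3, with median-ratio scaling (adjusted p = 0.0942) and with quantile normalization, and for Hapln4 in the joint model (0.0698). Calls of other named genes were lost, for the difference between the lines, under 21 of 26 alternatives for Slc1a2, 17 for Mmp15, 12 for Hapln4, 10 for Chst3 and 1 for Olig1, and under 4 of 25 for Hapln2, which lies under a minimum of 1 FPKM. Of 20 alternatives in the Dnmt1 line, 13 lost the call of Acta2, 13 of Pvalb, 8 of Mmp15, 8 of Olig2, 5 of Tnc, 5 of Pdgfra, 4 of Enpp6, 2 of Rgs5 and 3 of Bcan.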
